A study of Glycine max with 9 samples.

Results

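Ep and POD are soybean genes with peroxidase symbols, and they were taken by their gene names in the deposited table, where 1 transcript carries each name. They are 2 of 62645 gene identifiers, of which 32763 had enough expression to be tested. The pair was chosen from its levels with and without sucrose in these same libraries, so the levels of Ep and POD and their differences between times are given as a description, with no test. The plants were Williams 82, grown in nutrient solution for weeks before 10 mM sucrose was added to it, and sections with the root tip were harvested from 3 plants without sucrose (t0), 3 plants after 20 min of sucrose (t20) and 3 plants after 40 min (t40). No mock addition is described for t0. Libraries 1, 2 and 3 of the table belong to t0, the next 3 to t20 and the last 3, numbered 7, 8 and 9, to t40.

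Class III peroxidases are heme enzymes that plants secrete to the cell wall and the vacuole. They use hydrogen peroxide to oxidise phenolic compounds, and in this way couple lignin and suberin units and stiffen walls, and under other conditions they produce reactive oxygen species themselves. In roots they are known for their part in wall growth and in defence. Ep is the soybean locus known for the peroxidase activity of the seed coat, and RefSeq also lists it as SPOD4.1. Neither the deposited table nor the reference table describes the protein of POD, so its class rests on the name under which it was proposed and was not checked. No protein or promoter sequence of the pair was used here.

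Ep lies on the plus strand of chromosome 9 (1784353 to 1787520 in Glycine_max_v4.0) and POD on the minus strand of chromosome 2 (28873568 to 28875910). Both have a single annotated transcript of 4 exons, 1244 bases long for Ep and 1349 bases for POD. No further transcript was assembled at either locus, so the gene value is the value of that transcript and no exchange of transcript forms could be measured.

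Ep was low without sucrose and high at both times with sucrose. Its level in FPKM (fragments mapped to it, scaled by its length and by the depth of the library) was 11.2, 4.03 and 6.14 in t0 libraries 1, 2 and 3. At t20 it was 192 in library 4, 22.9 in library 5 and 59.3 in library 6, and at t40 it was 167, 61.8 and 74.6 in libraries 7, 8 and 9. Every library with sucrose lay above every t0 library. The lowest t20 library held 2.05 times the level of the highest t0 library, and the lowest t40 library 5.54 times. The libraries of t20 and t40 overlapped. The highest of all was a t20 library.

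The mean level of Ep was 7.11 ± 3.66 FPKM (SD, n = 3) without sucrose, 91.4 ± 89.0 after 20 min and 101 ± 57.3 after 40 min, so the means at t20 and t40 were 12.8 and 14.2 times that of t0. On the log2(FPKM + 1) scale, which understates the change of low genes, the difference from t0 was 3.10 (standard error 0.68) at t20 and 3.61 (standard error 0.68) at t40. Between t20 and t40 it was 0.51, less than its standard error of 0.68. Without library 4 the t20 mean was 41.1 FPKM, 5.78 times that of t0. Library 4 thus set the size of the t20 mean. Since it was the highest at t20, its removal could not alter the separation from t0, and nothing is read from that.

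POD was at a lower level than Ep and had the same order of times. Its FPKM was 2.33, 4.19 and 1.19 in t0 libraries 1, 2 and 3. It was 51.8 in library 4, 8.72 in library 5 and 10.1 in library 6 at t20, and 60.7, 36.0 and 22.4 in libraries 7, 8 and 9 at t40. All libraries with sucrose again lay above all t0 libraries. The lowest t20 library held 2.08 times the level of the highest t0 library, and the lowest t40 library 5.35 times. At t20 only library 4 came into the range of t40, and libraries 5 and 6 lay between t0 and t40.

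The mean level of POD was 2.57 ± 1.52 FPKM (SD, n = 3) without sucrose, 23.5 ± 24.5 after 20 min and 39.7 ± 19.4 after 40 min, which is 9.15 and 15.5 times the t0 mean. The log2 difference from t0 was 2.41 (standard error 0.62) at t20 and 3.49 (standard error 0.62) at t40, and from t20 to t40 it was 1.08 (standard error 0.62). Without library 4 the t20 mean was 9.39 FPKM, 3.65 times that of t0. That mean lies between the t0 and t40 means, as did the mean with library 4.

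**Figure D1:**
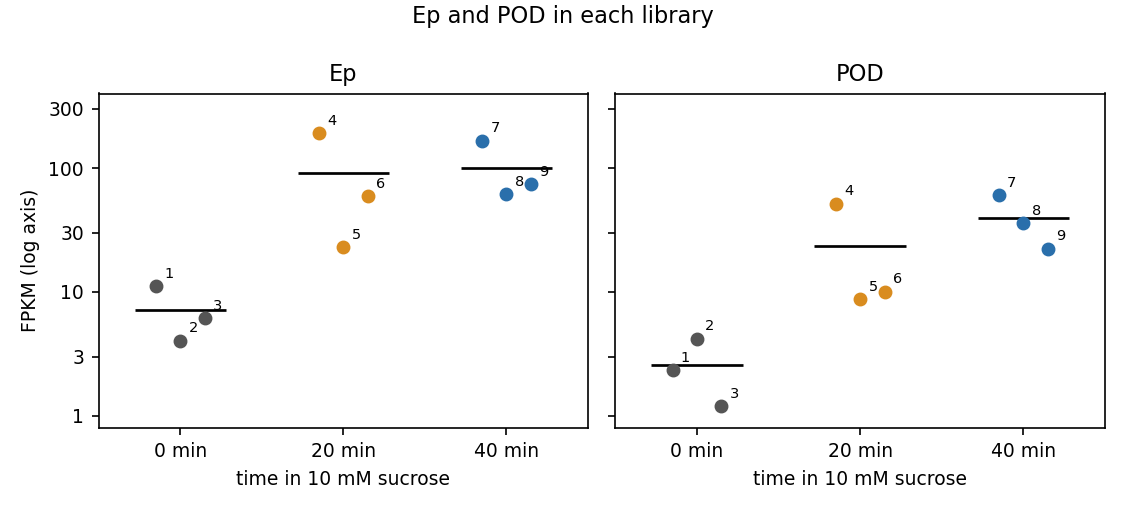
FPKM (log axis) of Ep and POD in each of the 9 libraries by time in sucrose, with the library number beside each point and the mean of the 3 libraries as a bar. For both genes every point at 20 and 40 min lies above every point at 0 min, and library 4 is the highest at 20 min.

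Groups of 3 libraries that do not overlap were common in the whole table. Of all genes tested, 10.6% had all t20 libraries above all t0 libraries, and 26.6% had all t40 libraries above all t0 libraries. Ep and POD share this property with these genes, and nothing about the pair is read from it. Their place among all genes is a description of the same kind. By mean level, 55.0% of the genes tested were lower than Ep at t0, 96.2% at t20 and 96.8% at t40. For POD these shares were 26.1%, 83.4% and 90.4%. By log2 difference from t0, Ep ranked 39 at t20 and 186 at t40 among 32763 genes, and POD ranked 170 and 214.

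Ep was the more abundant of the pair per length of transcript in 8 of the 9 libraries. In t0 library 2 the ratio of Ep to POD was 0.962, and in the other t0 libraries it was 4.80 and 5.16. It ranged from 2.62 to 5.90 at t20, with a median of 3.71, and from 1.72 to 3.33 at t40, with a median of 2.75. The ranges of the 3 times overlapped, and the widest range was that of t0. The ratio thus gave no separation of the times beyond the spread between plants.

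The t20 libraries were not alike over the whole table, and Ep and POD varied with them. Over the 3441 genes higher at t40, the median gene had reached 77.6% of its t40 rise in library 4, 20.9% in library 5 and 54.4% in library 6, on the log2 scale. Ep had reached 129%, 45.8% and 82.8% of its own rise in these libraries, more than the median gene in each. POD had reached 114%, 44.0% and 49.3%, more than the median gene in libraries 4 and 5 and less in library 6. The order of the 3 libraries was the same for Ep, for POD and for the median gene. In library 4 both genes were past their mean level at t40, while the median gene was not. Among t40 libraries, library 7 was the highest for both, with 124% for Ep and 120% for POD, where the median gene was at 101%.

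**Figure D2:**
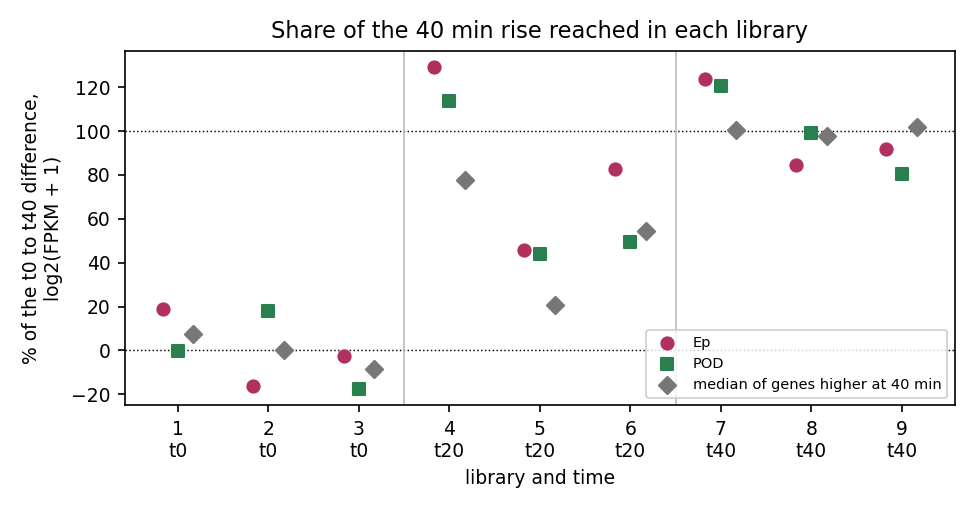
For each library, the percent of the difference between the t0 and t40 means that Ep, POD and the median of the 3441 genes higher at t40 had reached on the log2(FPKM + 1) scale, with 0% the t0 mean and 100% the t40 mean. Library 4 is at 129% for Ep and 114% for POD, and library 5 is the lowest of t20 for all 3.

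The likeness of other genes to the pair was measured by the Pearson correlation of log2(FPKM + 1) over the 9 libraries. These libraries hold the 3 times, so genes that follow the times correlate with each other, and no p is given. Ep and POD had a correlation of 0.926. That placed POD at rank 655 among the genes most like Ep, and Ep at rank 703 among those most like POD. For Ep, 1169 of the other 32762 genes had a correlation over 0.9, and for POD 1366 had one.

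The genes most like Ep carry LOC numbers without a description. LOC100801122 on chromosome 3 came first with a correlation of 0.992, and its mean FPKM was 0.611 at t0, 6.84 at t20 and 7.56 at t40. It was followed by LOC100789519 (0.989) on chromosome 19, LOC100780402 (0.986) on chromosome 18, LOC102668708 (0.986) on chromosome 19 and LOC102664566 (0.985) on chromosome 11. For POD the first was LOC100811170 on chromosome 14, with a correlation of 0.993 and a mean FPKM of 46.5 at t0, 137 at t20 and 211 at t40. LOC100783543, LOC100798759, LOC100777713 and LOC100792035 followed, each with at least 0.99. No gene was among the 5 most alike of both.

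The surroundings of the pair differed. Within 60 kb of POD the table holds 2 further gene identifiers, a small nucleolar RNA and a pseudogene, and both were listed at 0 in all 9 libraries. Within 60 kb of Ep it holds 16, of which 5 were listed at 0 in all libraries and 8 could be tested. These neighbours were taken by position alone. They were tested with limma in a fit over all 32763 genes, with Benjamini-Hochberg adjustment, and a gene counts as changed with an adjusted p under 0.05 and a log2 difference of at least 1. At t40, 2 of the 8 rose and 0 fell, where 14.0% of all genes changed, 10.5% upward and 3.49% downward. At t20, 1 of the 8 rose and 0 fell, where 0.922% of all genes changed, 0.766% upward and 0.156% downward.

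Both neighbours that rose lie downstream of Ep on the same strand. LOC100812309, which starts 37.8 kb from the start of Ep, is a gene of 4 exons (chromosome 9, 1822158 to 1826278). Its FPKM was 22.3, 37.5 and 6.84 in the t0 libraries, 569, 72.8 and 96.3 in the t20 libraries and 612, 250 and 202 in the t40 libraries. At t40 the log2 difference from t0 was 4.04 (standard error 0.80, adjusted p = 0.00849, limma over all genes), and it passed with any 1 of the 9 libraries left out. At t20 it was 3.06, and it did not pass (adjusted p = 0.0999). All its libraries with sucrose lay above all t0 libraries, as for Ep.

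The second is an assembled locus that starts 19.0 kb from Ep and joins LOC111064645 with LOC112997743 (chromosome 9, 1803334 to 1838987). Its span encloses LOC100812309, and reads may have been shared between them. Its FPKM was 64.0, 54.5 and 39.1 at t0, 593, 177 and 222 at t20 and 400, 189 and 245 at t40. The log2 difference from t0 was 2.45 (standard error 0.44, adjusted p = 0.0411) at t20 and 2.34 (standard error 0.44, adjusted p = 0.00684) at t40, in the same limma fit. At t40 it passed in all 9 fits that omit a single library, and at t20 in 1 of them. That fit was the one without library 5, and the adjusted p at t20 reached 0.135 in the others. The t20 call was also lost with quantile normalization, with no filter on low values and with only t0 and t20 in the fit.

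Of the annotated transcripts of that locus, the one of LOC111064645 had 34.9, 20.3 and 13.6 FPKM at t0, 292, 101 and 65.9 at t20 and 124, 52.6 and 79.2 at t40. The one of LOC112997743 had 3.67, 0.508 and 2.95 FPKM at t0, 103, 1.39 and 21.8 at t20 and 12.7, 2.13 and 2.67 at t40. The former lay above t0 in every library with sucrose, and the latter did not. Further transcripts were assembled at the LOC112997743 end without a gene name. The one from 1836308 had 8.91, 8.44 and 6.57 FPKM at t0, 73.5, 15.7 and 33.6 at t20 and 82.3, 26.9 and 31.3 at t40. The one from 1836383 had 16.5, 25.3 and 16.0 FPKM at t0, 120, 58.3 and 100 at t20 and 170, 104 and 115 at t40. Both lay above t0 in every library with sucrose.

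The gene next to Ep, LOC100804829, starts 9.04 kb from it and also has 4 exons. It had the highest level of the neighbours without sucrose, 266, 203 and 177 FPKM at t0, and 374, 274 and 284 FPKM at t40. Its log2 difference was 0.54 at t40 (adjusted p = 0.172, limma) and it did not pass. LOC100814455, a further gene of 4 exons 44.5 kb from Ep, had a mean of 4.89 FPKM at t0 and 7.43 at t40 and did not pass either (log2 difference 0.57, adjusted p = 0.145). Between LOC106794319, a pseudogene of 4 exons directly upstream that was listed at 0 throughout, and LOC100814455, the genes on the plus strand all have a 4 exon transcript first in the table, as Ep has. The table does not describe their proteins, and near-identical copies that lie side by side could have shared reads with Ep.

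Upstream of Ep no gene passed. LOC100800037 had a log2 difference of 0.74 at t40 (adjusted p = 0.0468) and LOC100499750 one of -0.62 (adjusted p = 0.0318), both under the size required. LOC100816732, at the far downstream end, had -0.97 (adjusted p = 0.0254). With quantile normalization between libraries, LOC100804829 (log2 difference 1.05) and LOC100816732 (-1.14) also passed at t40, the latter also with a pseudocount of 0.1. Over the 9 libraries the correlation with Ep was 0.968 for the locus that joins LOC111064645 with LOC112997743. It was 0.924 for LOC100812309, 0.904 for LOC100804829 and between -0.812 and 0.558 for the other tested neighbours.

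**Figure D3:**
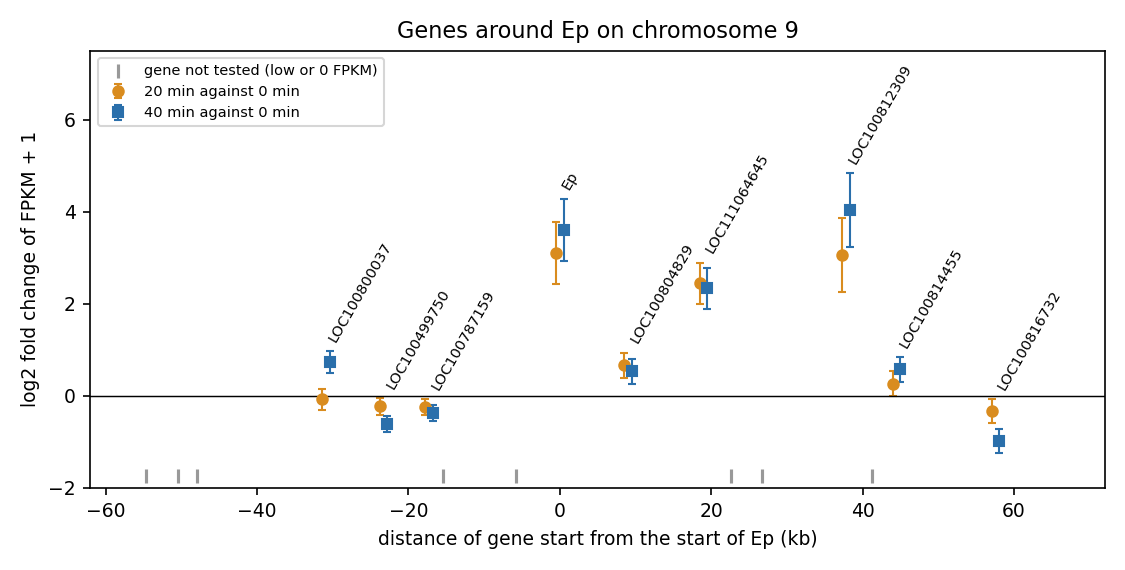
Log2 fold change of FPKM + 1 at 20 and at 40 min against 0 min (bars are standard errors of the limma fit) for Ep and the 8 tested genes within 60 kb, by distance of the gene start from that of Ep in kb, with untested genes as ticks. Ep at 3.10 and 3.61, LOC100812309 at 3.06 and 4.04 and the point marked LOC111064645 at 2.45 and 2.34 stand above the others. That point is the whole assembled locus that joins LOC111064645 with LOC112997743.

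Other genes with a peroxidase symbol were few, since most soybean genes carry only a LOC number. Besides the pair, 7 had a symbol that begins as peroxidase names do or an older name of that kind, and 5 of them were tested. The letters PRX and PER are also used for peroxiredoxins, which the table does not tell apart. At t40, 1 of the 5 rose and 0 fell, where 10.5% of all genes rose and 3.49% fell. At t20, 0 of 5 passed, with 1 of 5 at an unadjusted p under 0.05 (limma), where 0.922% of all genes changed. With so few genes a single call is near the share of all genes. The median log2 difference at t40 was 0.93, against 0.06 over all genes tested, and 0.45 without library 3. It is the value of SEPB2, which did not pass. The gene that rose was LOC547499 on chromosome 15, known as GMIPER1, a peroxidase described from soybean as induced by a pathogen.

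LOC547499 had 51.5, 83.0 and 69.8 FPKM at t0, 104, 80.8 and 91.7 at t20 and 161, 110 and 162 at t40. Its log2 difference at t40 was 1.07 (standard error 0.24, adjusted p = 0.0129, limma), near the size required, and it passed in 6 of 9 fits that omit a single library, and not without library 1, 7 or 9. At t20 its range overlapped that of t0. Its level at t0 was above that of Ep and POD in every library.

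PRX2B on chromosome 7 had a mean of 123 FPKM at t0 and 242 at t40, a log2 difference of 0.97 (adjusted p = 0.0404) that was just under the size required, and 1.41 with quantile normalization, where it passed. PRX2 on chromosome 17 had 320 ± 40.4 FPKM (SD, n = 3) without sucrose, 272 ± 52.1 after 20 min and 284 ± 13.4 after 40 min, and PRX4 on chromosome 16 had 277 ± 70.4, 196 ± 14.7 and 298 ± 49.2. Neither passed at t20 or t40. SEPB2 on chromosome 11 had a mean of 3.84 FPKM at t0 and 6.14 at t40, with overlapping libraries. PER1 and PRX3 were too low to be tested, PER1 with at most 1.12 FPKM and PRX3 with at most 0.956 in any library.

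Genes linked to the making or removal of hydrogen peroxide, the substrate of peroxidases, were followed by symbol. The producer list holds germin-like proteins, superoxide dismutases and a polyamine oxidase. Symbols of NADPH oxidases (RBOH) were also sought, and none was found. Of the 19 tested identifiers of this list, 8 rose at t40 and 0 fell, where 10.5% of all genes rose and 3.49% fell. The median log2 difference was 1.27, against 0.06 over all genes. At t20, 1 rose and 0 fell, where 0.766% of all genes rose. The gene that rose at t20 was GER9, and this call held in 2 of 9 fits that omit a single library, those without library 5 or 7, and was lost with no filter on low values and with only t0 and t20 in the fit. The 8 that rose at t40 are all named GER, a symbol of germin-like proteins. Some of these are known in cereals to release or form hydrogen peroxide. Whether the soybean GER genes do so was not checked. Of the 8, GER9 and GER15 alone passed with any 1 of the 9 libraries left out. With quantile normalization 5 rose, and without library 8 only 3.

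GER9, whose identifier also holds another gene, had the highest rise of the list, from 34.3 ± 12.4 FPKM (SD, n = 3) at t0 to 1040, 189 and 461 at t20 and 782, 256 and 325 at t40 (log2 difference 3.57 at t40, standard error 0.60, adjusted p = 0.004, limma). It was highest at t20 in library 4 and at t40 in library 7, as were Ep and POD. GER2 had 31.3, 22.8 and 255 FPKM at t0 and 724, 263 and 491 at t40, so that t0 library 3 came close to the lowest t40 library (log2 difference 2.97, adjusted p = 0.0487). It passed in 3 of 9 fits that omit a single library. SOD1, a superoxide dismutase, had 284 ± 36.3 FPKM (SD, n = 3) at t0 and 209 ± 22.9 at t40 and did not pass. The superoxide dismutase genes SODB and SODB2 went the other way, from 45.9 and 37.0 FPKM on average at t0 to 170 and 76.9 at t40. Neither passed (log2 difference 1.89 and 1.04, adjusted p = 0.0734 and 0.395, limma).

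The remover list holds catalases and ascorbate peroxidases, which act on hydrogen peroxide, and dehydroascorbate reductases and a glutathione reductase. These reductases restore ascorbate and glutathione and do not act on hydrogen peroxide directly. No member of the list passed in either comparison. At t40, 0 of 11 passed, where 14.0% of all genes changed, so a list of this size would hold few changed genes at that share. An unadjusted p under 0.05 in limma was found for 3 of them, 1 higher and 2 lower. The median log2 difference was -0.12, against 0.06 over all genes. At t20, 0 of 11 passed and 1, CAT5, was higher at an unadjusted p under 0.05 (limma), where 0.922% of all genes changed. The catalase genes CAT1, CAT3, CAT4 and CAT5 had log2 differences of 0.34, 0.42, 0.05 and 0.67 at t40, and none passed. The ascorbate peroxidase genes APX1 and APX2 were the most abundant, with 870 ± 188 and 1116 ± 175 FPKM (SD, n = 3) at t0 and 574 ± 22.8 and 823 ± 68.7 at t40. DHAR4, a dehydroascorbate reductase, had 151 ± 23.7 FPKM at t0 and 138 ± 10.7 at t40. DHAR1, of the same family, had 60.4 ± 4.86 FPKM at t0 and 36.6 ± 3.64 at t40. Its log2 difference of -0.71 (adjusted p = 0.0311, limma) was under the size required.

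Enzymes of phenylpropanoid synthesis, which supplies the phenolic substrates of peroxidases, moved in both directions. Of 16 tested identifiers, 3 rose and 2 fell at t40, where 10.5% of all genes rose and 3.49% fell. At t20, 1 fell, where 0.156% of all genes fell. That gene was C4H1 (log2 difference -2.02, adjusted p = 0.0395, limma), and at t20 it passed only without library 5 among the 9 fits that omit a single library, and was lost with no filter on low values and with only t0 and t20 in the fit. 4CL4, a 4-coumarate CoA ligase, had 17.7 ± 3.21 FPKM (SD, n = 3) at t0 and 57.1, 77.8 and 103 in the t40 libraries (log2 difference 2.07, adjusted p = 0.00288, limma). C4H1, a cinnamate hydroxylase, had 18.8, 14.6 and 9.67 FPKM at t0 and 2.39, 1.33 and 1.63 at t40 (log2 difference -2.44, adjusted p = 0.0022). At t40 4CL3 and PAL3.1 also rose (log2 difference 3.17 and 2.01, adjusted p = 0.00239 and 0.00874, limma), each in 9 of 9 fits that omit a single library. CAD1 fell (log2 difference -1.32, adjusted p = 0.0257, limma), and it passed in 4 of 9 such fits. The most abundant were PAL2.3, whose identifier holds more than 1 gene, C4H and PAL2.1, with 338, 220 and 185 FPKM on average at t0 and 320, 315 and 179 at t40. None of these passed.

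**Figure D4:**
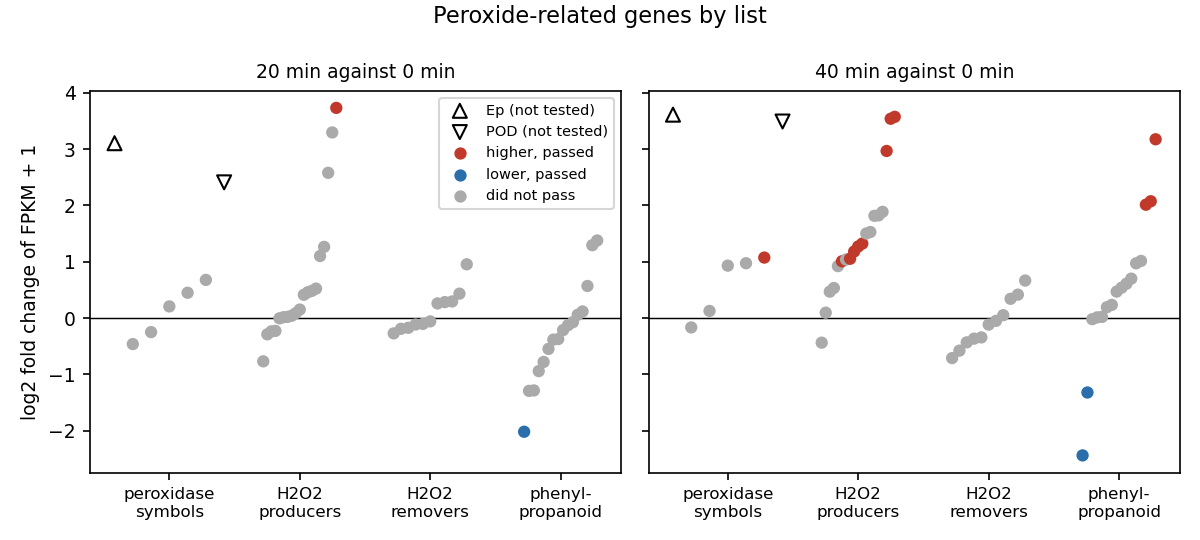
Log2 fold change of FPKM + 1 at 20 min (left) and 40 min (right) against 0 min for each tested gene of 4 lists made by symbol, coloured by whether it passed (adjusted p under 0.05 and a change of at least 1). Open triangles mark Ep and POD, which were not tested. At 40 min 8 of 19 genes of the producer list passed, and these 8 are named GER. Of the remover list 0 of 11 passed, where 14.0% of all genes did.

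The tissue was checked by markers. Aquaporins and auxin carriers are not limited to roots, so their sum does not set roots apart from other organs. The summed FPKM of 40 identifiers of aquaporins, auxin carriers and the root expansin EXPB2 lay between 4395 and 5545 at t0, between 5906 and 11504 at t20 and between 6119 and 8614 at t40. Of 20 seed and seed coat genes, 11 were listed at 0 in all libraries, among them the glycinins GY1, GY2, GY4 and GY5 and the seed coat genes HPS and SCB1. The trypsin inhibitor genes KTI-1, KTI-2 and KTI-3 made up nearly all of the remaining sum, which lay between 903 and 1368 FPKM at t0, 1285 and 2036 at t20, and 656 and 857 at t40. Of 30 photosynthesis genes, 9 were tested, and their list had a sum between 147 and 360 FPKM at t0, 175 and 713 at t20, and 116 and 151 at t40. Most of that sum came from RBCS2 and CAB3. At t20 the median log2 difference of the 9 was 1.40, against 0.02 over all genes, and 0.78 without library 6. An unadjusted p under 0.05 was found for 6 of the 9, all higher (limma). RCAALPHA, for a Rubisco activase, rose from 0.0792, 0.211 and 0.115 FPKM at t0 to 3.24, 1.65 and 8.44 at t20 (log2 difference 2.06, adjusted p = 0.0411), and was lower again at t40 (log2 difference -1.94 from t20, adjusted p = 0.0401). Its call at t20 was lost with quantile normalization, with no filter, with only t0 and t20 in the fit, and with any 1 library other than library 5 left out. Its lower call from t20 to t40 was lost with a pseudocount of 0.1, with no filter and with only t20 and t40 in the fit. That call was also lost with any 1 library other than library 3 left out. CAB3 and RCAALPHA were highest in library 6, with 335 FPKM for CAB3, while Ep and POD were highest at t20 in library 4. Of 4 nodule genes in the table, ENOD93 was listed at 0 and the sum lay between 98.3 and 275 FPKM at t0, 131 and 439 at t20, and 250 and 312 at t40. The part of these genes in the levels of Ep and POD was not tested. Since whole root sections were used, more cells that express a gene and more RNA per cell cannot be told apart.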

How the data were processed

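Root tip sections of 9 plants gave 9 stranded paired-end RNA-seq libraries. Per the labels and the methods, the authors cleaned the reads (Trimmomatic 0.32), mapped them to Glycine_max_v4.0 (HISAT2), assembled transcripts with StringTie and extracted FPKM with Ballgown. The deposited table holds the FPKM of 119600 transcripts in each library. FPKM are not counts, the deposited table gives no depth behind a value, and no count model was fitted. The study lists read totals per replicate, on the whole lowest at t40 and with a lower aligned share there, and these could not be matched to single columns, so low values at t40 may rest on fewer reads. Another 9 columns with values per library were not used. Columns name the time and number the libraries 1 to 9, with no replicate number.

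FPKM was summed over the transcripts of each gene identifier, and 490 transcripts without one were taken by their transcript name. Genes reaching 1 FPKM in 3 or more libraries entered the test on log2(FPKM + 1) with limma 3.58.1 in R 4.3.3 (eBayes with trend, all 9 libraries), with Benjamini-Hochberg adjustment. The fit was tested on simulated data.

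Ep and POD, the lists and the tests were chosen with earlier results of these data known. Class III peroxidases were to be listed by protein motif; that table was not given, so symbols and older names were used, leaving out PERK1, SEP1 and PNC1, whose names belong to other families. Named genes were Ep and POD, the members of each list with the highest mean level (5 for peroxidases, 3 for the others), the largest changes among peroxidases, the 5 genes most like each member and the neighbours within 60 kb, which were added later by position. PER1 and PRX3 complete the peroxidase list. GER15, SODB, SODB2, DHAR1, the catalases, RCAALPHA, RBCS2, 4CL3, 4CL4, PAL3.1, CAD1, C4H1, CAB3 and the seed, nodule and inhibitor genes were picked after their values were seen. Transcript shares could not be tested with 1 transcript per gene.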

Additional observations from a re-analysis of the deposited data

How the results depend on the processing

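The log2 difference of Ep from t0 stayed between 3.18 and 3.95 at t40 and between 2.32 and 3.83 at t20 over the 9 fits that left out 1 library, and that of POD between 3.13 and 3.83 and between 1.63 and 2.85. The lowest t20 values of both came without library 4. A pseudocount of 0.1, quantile normalization, no filter and fits of only the groups compared moved them by less than the spread between libraries.

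The number of genes changed at t20 was less stable. It was 302 in the fit reported, 706 with a pseudocount of 0.1, 141 with quantile normalization, 0 with no filter on low values, 1 with only the groups compared, and 997 at an unadjusted p under 0.05 with a log2 difference of at least 1.5. Leaving out 1 library gave 0 to 2222, with 0 without library 2, 4 or 6 and 2222 without library 5. At t40 it was 4585, and 2404 with the unadjusted threshold, and 2805 (without library 8) to 5350 (without library 1) with 1 library left out. Between t40 and t20 it was 444, and 17 with a pseudocount of 0.1, 109 with no filter and 144 with only the groups compared, and 0 (without library 8 or 9) to 1302 (without library 4) with 1 library left out. Quantile normalization moved the median log2 difference of all genes at t40 from 0.06 to -0.11, and the share of higher genes among those changed from 75.0% to 62.4% at t40 and from 83.1% to 73.0% at t20. Of the 5 other peroxidase symbols, 1 was changed at t40, 2 with quantile normalization, 0 with the unadjusted threshold, and 0 to 1 with 1 library left out, with 0 without library 7 or 9. At t20 it was 0 in each of these fits.

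No paired analysis was possible because the columns carry no replicate numbers. The cause of these differences was not tested.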
